A study of Homo sapiens with 14 samples.

Results

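The NF-κB subunit genes NFKB1, NFKB2, REL, RELA and RELB and 5 genes of their feedback and target set, NFKBIA, NFKBIE, TNFAIP3, BIRC3 and ICAM1, were followed in Hep3BTAp73β cells with and without doxycycline. The genes were picked by symbol from the array's probe annotation, keeping probe sets that name 1 gene. Of the 10 genes listed, 9 had a probe set, 20 probe sets in all, among 19775 genes and 41091 such probe sets on the array, and BIRC3 was not analysed here. Where a gene had several probe sets, the brightest over the 14 arrays stands for the gene. The others are given at 48 h, and for some genes at the earlier times. All levels are log2 values after robust multi-array averaging (RMA), so that a difference of 1 is a doubling, and they are compared between arrays for the same probe set only.

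Hep3B is a human hepatocellular carcinoma line that lacks p53, and Hep3BTAp73β carries an integrated cDNA of human TAp73β, a p53 relative that activates transcription, under a promoter that doxycycline opens. Dox+ cultures received 1 μg/mL doxycycline for 12 h (2 arrays), 24 h (2 arrays) or 48 h (3 arrays), and as many Dox− cultures of the same cells were collected without it at each time. Both groups carry the construct and the tetracycline repressor and come from drug-resistant colonies that had been picked, and no culture of unmodified cells with doxycycline is among the samples, so the drug and the transgene cannot be told apart. A change in some cells and a smaller change in all cells cannot be told apart either in bulk RNA. The TP73 probe set was higher in Dox+ at each time, with log2 differences of 1.89 (12 h), 2.27 (24 h) and 1.96 (48 h), and Dox+ arrays between 7.89 and 8.30 and Dox− arrays between 5.82 and 6.08.

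NF-κB proteins are dimers of 5 related subunits that wait in the cytoplasm bound to inhibitors of the IκB family. Signals from cytokine, Toll-like and other receptors activate IκB kinases, the inhibitors are degraded and the dimers enter the nucleus. There they raise transcription of inflammatory and survival genes and of their own inhibitors, IκBα (NFKBIA), IκBε (NFKBIE) and the ubiquitin-editing enzyme TNFAIP3, which close the loop. In hepatocytes this loop is known for acute-phase and survival responses to tumour necrosis factor.

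The hepatocyte markers were bright on all arrays and several of them moved. Over the 14 arrays the 8 markers lay between 7.61 and 14.44, with ALB, at the top of the scale, between 14.30 and 14.44. At 48 h 5 of the 8 (AFP, APOA1, TTR, FGB and TF) fell and SERPINA1 rose, and the mean of that list was 11.39 to 11.47 on the Dox+ arrays and 11.72 to 11.77 on the Dox− arrays. Of the 4 leukocyte markers measured only ITGAM was called, by 2.21 at 48 h (1.35 at 24 h). CD14 was also higher on every Dox+ array at 48 h, by 0.30, without passing (limma adjusted p = 0.0569), while PTPRC and CD3E overlapped. The list mean at 48 h was 5.94 to 6.01 on Dox+ arrays and 5.22 to 5.36 on Dox− arrays. Of 5 fibroblast markers LUM (1.23) and DCN (0.20) were higher in Dox+ at 48 h, LUM also at 24 h (0.64), and none of 4 endothelial markers was called (0 at unadjusted p under 0.05, limma). Within the leukocyte, endothelial and fibroblast lists the levels varied. PTPRC (3.44 to 3.88), CDH5 (3.54 to 3.88), KDR (3.65 to 3.92) and COL3A1 (4.03 to 4.30) were dim, while CD14 (6.06 to 7.12), PECAM1 (6.34 to 7.02), COL1A1 (7.36 to 7.96) and LUM (8.55 to 10.11) were not. The part of these shifts in the results that follow was not tested. Replicate arrays correlated at 0.993 or above. Their spread, the root of the mean variance over genes, was smallest at 48 h, 0.11 in Dox+ and in Dox−, compared with 0.20 in Dox+ and 0.21 in Dox− at 12 h and 0.15 in Dox+ and 0.18 in Dox− at 24 h.

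At 48 h the inhibitors and feedback genes were higher in Dox+ cells, while 4 of the 5 subunit genes were not called. NFKBIA, NFKBIE, TNFAIP3, ICAM1 and the subunit gene RELB rose 1.26-fold to 1.61-fold, and no member fell. The 5 rises among 9 measured genes stand beside 11.3% of all genes called higher and 12.9% called lower in the same comparison (limma, adjusted p under 0.05 over all 19775 genes). The members were chosen with earlier results of these data known, and the shares were not tested against each other. In the same 5 genes every Dox+ array lay above every Dox− array, as it did for 17.4% of all genes, and in no member did the arrays lie the other way round (21.9% of all genes). The same 5 members had an unadjusted p under 0.05, compared with 34.2% of all genes. The median difference was 0.33 over the 9 members and -0.02 over all genes.

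**Figure D1:**
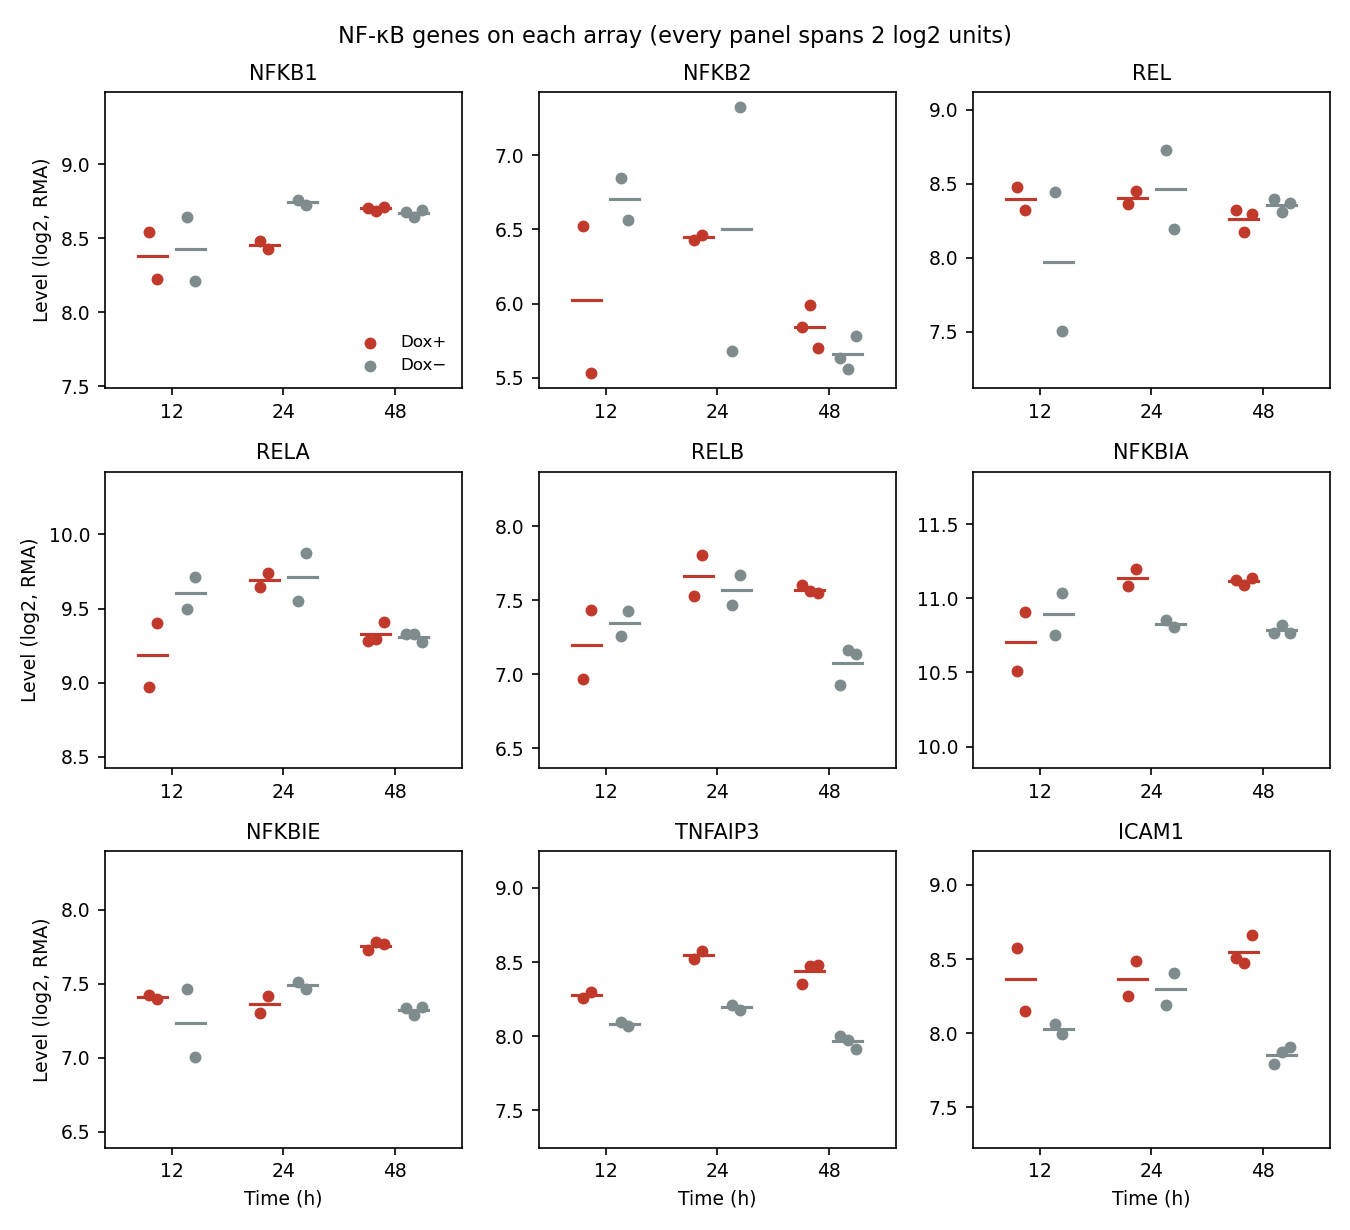
RMA level (log2, vertical axis) of each of the 9 measured genes on each array at 12, 24 and 48 h, Dox+ in red to the left of Dox− in grey; a point is 1 array and a line is the group mean. At 48 h the points of RELB, NFKBIA, NFKBIE, TNFAIP3 and ICAM1 do not overlap between Dox+ and Dox−, and those of NFKB1, NFKB2, REL and RELA do.

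ICAM1, an adhesion molecule of the cell surface and a classical NF-κB target, had the largest difference among the members. Its levels at 48 h were 8.50, 8.47 and 8.66 on the Dox+ arrays and 7.79, 7.87 and 7.90 on the Dox− arrays. The lowest Dox+ array was well above the highest Dox− array, and the means were 8.55 ± 0.10 in Dox+ and 7.86 ± 0.06 in Dox− cells (SD, n = 3 each). The difference was 0.69 (SE 0.07, limma adjusted p = 0.000127), a 1.61-fold rise.

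TNFAIP3 removes activating ubiquitin chains from adaptors of the pathway and so ends the signal. It read 8.35, 8.47 and 8.48 on the Dox+ arrays and 8.004, 7.97 and 7.92 on the Dox− arrays at 48 h. The groups were apart by more than either group's range, with a difference of 0.47 (SE 0.06, adjusted p = 0.000632).

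The inhibitor genes NFKBIA and NFKBIE were both higher in Dox+ at 48 h. NFKBIE, which retains RELA and REL dimers in the cytoplasm, read 7.73, 7.78 and 7.77 in Dox+ and 7.34, 7.29 and 7.34 in Dox−. Its replicates differed by at most 0.05, and the difference was 0.43 (SE 0.06, adjusted p = 0.000503). NFKBIA, the inhibitor made anew soon after NF-κB enters the nucleus, read 11.12, 11.09 and 11.14 in Dox+ and 10.77, 10.82 and 10.76 in Dox−. That difference, 0.33 (SE 0.06, adjusted p = 0.0022), was the smallest of the 5.

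RELB is the subunit of the alternative pathway, in which it pairs with the NFKB2 product, and its gene is itself a target of NF-κB. It read 7.60, 7.56 and 7.55 in Dox+ and 6.93, 7.16 and 7.14 in Dox− cells. The Dox− replicates were the more spread, and the difference was 0.49 (SE 0.07, adjusted p = 0.00115), a 1.41-fold rise.

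The other subunit genes did not pass at 48 h. RELA, the main activating subunit, read 9.28, 9.30 and 9.41 in Dox+ and 9.33, 9.33 and 9.27 in Dox−. The difference was 0.02, with a 95% interval from -0.12 to 0.16 (adjusted p = 0.881). NFKB1, which encodes the precursor of the p50 subunit, read 8.71, 8.68 and 8.71 in Dox+ and 8.68, 8.65 and 8.69 in Dox−, a difference of 0.03 (interval -0.09 to 0.15, adjusted p = 0.757). Both intervals ended below the smallest rise among the called genes. REL, a subunit best known from lymphocytes, read 8.32, 8.18 and 8.30 in Dox+ and 8.40, 8.31 and 8.37 in Dox− (difference -0.09, interval -0.24 to 0.05, adjusted p = 0.366). NFKB2, which encodes the precursor of the p52 subunit, read 5.84, 5.99 and 5.70 in Dox+ and 5.63, 5.56 and 5.78 in Dox−. Its groups overlapped by 1 array on each side, and the interval of its difference of 0.19, from -0.01 to 0.39 (adjusted p = 0.172), reached past the difference of NFKBIA.

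The promoters of 3 genes that rose at 48 h and of 1 that was not called are shown, since the classical NF-κB motif differs among them. The RefSeq table (GRCh38.p14) held windows of 250 bases before to 50 after the start for 7 of the 9 measured genes, among them 3 of the 5 that rose, and no window for RELB and NFKBIE. The part before the start is printed, 5′ to 3′ along the gene, in lower case. Capitals mark matches on either strand to the 10-base κB consensus or to the 9 letters GGAAATTCC, the second motif having been added after the windows were read. The 2 motifs overlap wherever both match.
NFKBIA promoter, chr14:35404750-35404999, minus strand: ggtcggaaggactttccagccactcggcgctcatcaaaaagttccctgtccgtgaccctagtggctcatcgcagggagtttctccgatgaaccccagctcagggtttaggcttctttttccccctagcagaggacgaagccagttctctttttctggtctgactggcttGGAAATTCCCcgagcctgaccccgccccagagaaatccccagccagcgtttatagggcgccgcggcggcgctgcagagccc
TNFAIP3 promoter, chr6:137867009-137867258, plus strand: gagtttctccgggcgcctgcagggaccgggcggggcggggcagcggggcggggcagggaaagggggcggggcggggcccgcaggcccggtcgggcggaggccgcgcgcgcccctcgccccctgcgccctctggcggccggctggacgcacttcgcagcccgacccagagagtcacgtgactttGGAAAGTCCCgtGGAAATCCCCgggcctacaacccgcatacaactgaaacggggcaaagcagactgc
ICAM1 promoter, chr19:10270870-10271119, plus strand: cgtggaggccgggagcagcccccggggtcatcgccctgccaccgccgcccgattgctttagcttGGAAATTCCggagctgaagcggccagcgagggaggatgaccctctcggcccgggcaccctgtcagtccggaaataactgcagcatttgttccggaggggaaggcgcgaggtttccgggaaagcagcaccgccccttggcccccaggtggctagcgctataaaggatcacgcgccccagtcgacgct
REL promoter, chr2:60881324-60881573, plus strand: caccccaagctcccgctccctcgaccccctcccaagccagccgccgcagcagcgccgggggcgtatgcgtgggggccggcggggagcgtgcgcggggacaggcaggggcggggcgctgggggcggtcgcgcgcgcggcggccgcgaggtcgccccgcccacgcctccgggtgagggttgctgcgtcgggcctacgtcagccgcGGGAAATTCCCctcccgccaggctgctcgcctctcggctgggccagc
The κB consensus matched in at least 1 window of 5 of the 7 genes and in 11.3% of 35116 windows of that length in the table. NFKB2 had 3 windows and NFKB1 and RELA had 2 each, so the first share counts genes and the second counts windows. It was present in 2 of the 3 genes that rose and in 3 of the 4 that were not called, so its presence did not separate them. NFKBIA held GGAAATTCCC, beginning 81 bases before the start, and TNFAIP3 held GGAAAGTCCC and GGAAATCCCC 67 and 55 bases before it. ICAM1 held no match to the consensus but had GGAAATTCC at 186 bases before the start, letters found in 0.461% of all windows and also in those of NFKBIA, REL and NFKB1. REL, whose level was not called at any time, held an overlapping pair of matches, GGGAAATTCC and GGAAATTCCC, at 47 and 46 bases, NFKB1 held GGGAATTTCC at 49 bases, and NFKB2 held matches in 2 of its windows. The 10-base repeat consensus of the p53 family matched in none of the 7 genes and in 6.63% of all windows. A match is a description of letters and was not tested as a binding site.

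The further probe sets of the members were read as separate measurements of the same arrays. Of all 20 probe sets 8 were higher at 48 h and none lower, where 8.19% of all 41091 probe sets were called higher and 9.19% lower (limma; of the 12 not called, 0 had an unadjusted p under 0.05). Both other ICAM1 probe sets rose. The nearly as bright one read 8.49, 8.51 and 8.75 in Dox+ and 7.81, 7.86 and 8.01 in Dox− (difference 0.69, adjusted p = 0.000611), and the dimmer one read 6.31, 6.06 and 6.20 in Dox+ and 5.90, 5.91 and 5.95 in Dox− (difference 0.27, adjusted p = 0.038). The other TNFAIP3 probe set read 6.92, 6.91 and 6.91 in Dox+ and 6.47, 6.36 and 6.49 in Dox−, a difference of 0.48 (adjusted p = 0.000853). So the rise of these 2 genes was measured by every probe set that they have. NFKBIA was the exception, since its dim probe set differed by 0.05 (adjusted p = 0.739), with Dox+ arrays up to 4.47 and Dox− arrays up to 4.32. The 5 REL probe sets had differences from -0.11 to 0.06, the 2 of RELA -0.04 and 0.02, and the 3 of NFKB2 0.06 to 0.19, none called.

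**Figure D2:**
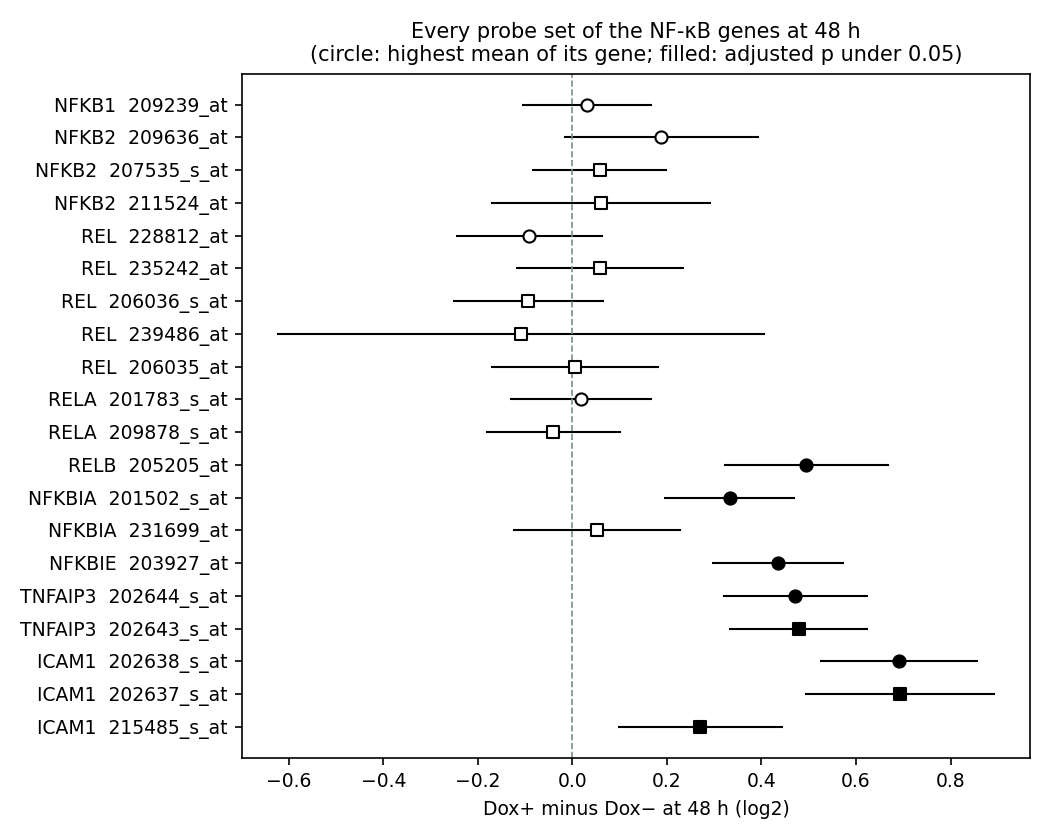
Difference at 48 h (Dox+ minus Dox−, log2) with its 95% interval for each of the 20 probe sets of the 9 genes, fitted over all probe sets; circles mark the brightest probe set of a gene, squares the others, and filled symbols an adjusted p under 0.05. All probe sets of ICAM1 and TNFAIP3 lie to the right of 0, and those of REL and RELA straddle it.

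At 24 h no member was called, where 5.83% of all genes were (3.01% higher, 2.81% lower; limma), and 3 of 9 members had an unadjusted p under 0.05, compared with 20.2% of all genes. TNFAIP3 read 8.52 and 8.58 in Dox+ and 8.21 and 8.18 in Dox−, a difference of 0.35 (SE 0.13, adjusted p = 0.151). NFKBIA read 11.08 and 11.20 in Dox+ and 10.86 and 10.80 in Dox−, a difference of 0.31 (SE 0.13, adjusted p = 0.215). Both differences were close in size to those of the same probe sets at 48 h, with 2 arrays a group. At 24 h the other TNFAIP3 probe set differed by 0.11 and the dim NFKBIA one by 0.15, both with overlapping arrays. With other settings TNFAIP3 (all 14 arrays in 1 fit, adjusted p = 0.0232) or NFKBIA (moderation with trend and robust options, adjusted p = 0.0402) passed. NFKB1 lay the other way, at 8.48 and 8.43 in Dox+ and 8.76 and 8.73 in Dox− (difference -0.29, adjusted p = 0.244), and its groups overlapped at 48 h. NFKBIE was also below Dox− on both arrays, at 7.30 and 7.42 in Dox+ and 7.51 and 7.47 in Dox− (difference -0.13, adjusted p = 0.634), which is the opposite direction to its rise at 48 h. Non-overlap was common at this time, with 26.6% of all genes above and 23.7% below. ICAM1 and RELB overlapped, with differences of 0.07 and 0.10. The RELA probe sets disagreed at 24 h. The brightest differed by -0.02 with overlapping arrays, and the dimmer one lay below on both arrays, by -0.47 (limma over all probe sets, adjusted p = 0.193). The REL probe sets differed by -0.39 to 0.49 at 24 h, and none was called.

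At 12 h no member was called, where 0.668% of all genes were (0.647% higher, 0.0202% lower; limma), and none had an unadjusted p under 0.05, compared with 13.7% of all genes. TNFAIP3 (8.25 and 8.30 in Dox+, 8.10 and 8.07 in Dox−) and ICAM1 (8.58 and 8.15 in Dox+, 8.06 and 7.99 in Dox−) lay above Dox− on both arrays, as did 19.3% of all genes, with differences of 0.19 (adjusted p = 0.574) and 0.34 (adjusted p = 0.451). RELA (8.97 and 9.41 in Dox+, 9.50 and 9.72 in Dox−) lay below on both arrays, as did 27.6% of all genes, with a difference of -0.42 (adjusted p = 0.381). Its dimmer probe set also lay below on both arrays, by -0.55 (limma over all probe sets, adjusted p = 0.447). By the brightest probe sets, TNFAIP3 was the 1 member whose Dox+ arrays were above its Dox− arrays at each of the 3 times. The share of all genes that kept this order throughout was not counted, so whether it is unusual cannot be said. On the other TNFAIP3 probe set the groups overlapped at 12 h and at 24 h. Both other ICAM1 probe sets overlapped at 12 h, with differences of 0.12 and -0.05.

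NFKB2 was the least reproducible member before 48 h. At 12 h it read 6.52 and 5.53 in Dox+ and 6.84 and 6.56 in Dox−, and at 24 h 6.43 and 6.46 in Dox+ and 5.68 and 7.32 in Dox−. The 2 Dox− replicates at 24 h were 1.64 apart and lay on either side of both Dox+ arrays. Without Dox+ replicate 1 the 12 h difference of -0.68 (adjusted p = 0.375) became -1.17 and passed (adjusted p = 0.0325). The 24 h difference of -0.06 (adjusted p = 0.958) passed as a fall of 0.88 without Dox− replicate 1 (adjusted p = 0.0265) and as a rise of 0.76 without Dox− replicate 2 (adjusted p = 0.0381), so 1 array set its direction. Each of these leaves 1 array in a group, which is then assumed to vary like the other group. Its dimmer probe sets were also below Dox− at 12 h on every array, by 0.37 and 0.52, without passing.

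**Figure D3:**
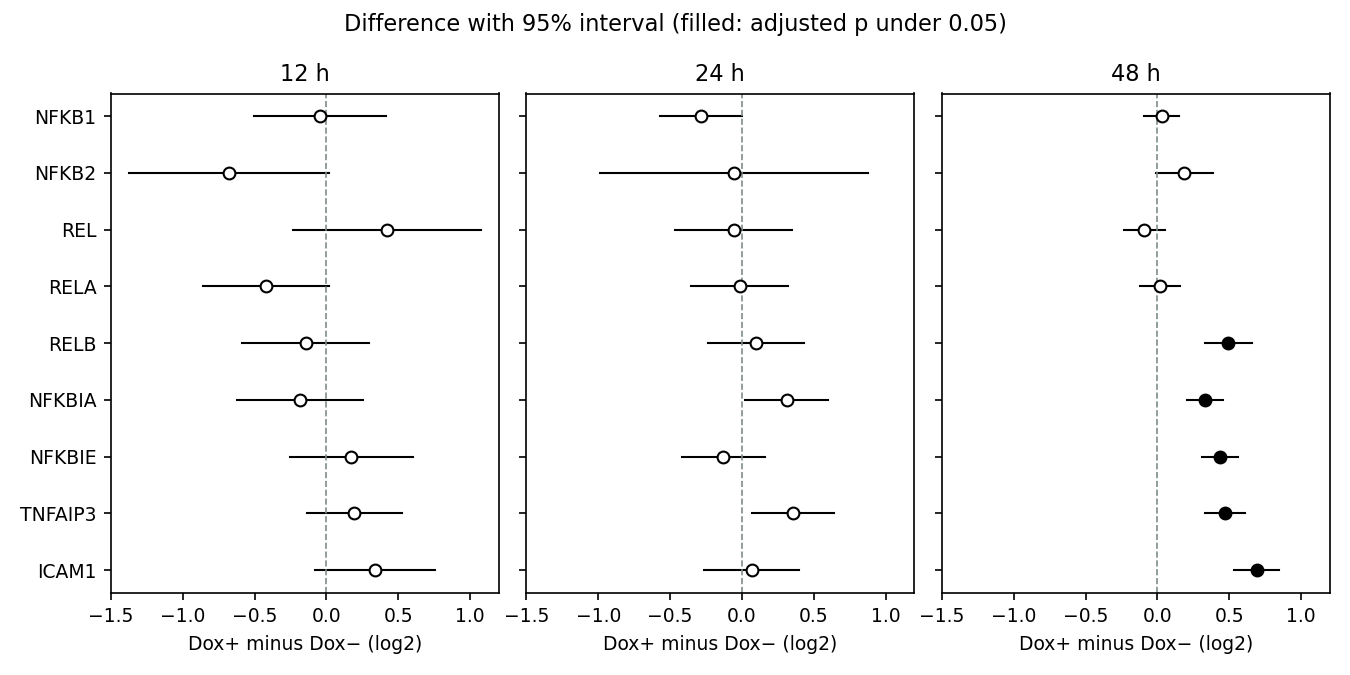
Difference (Dox+ minus Dox−, log2) of the 9 genes at 12, 24 and 48 h, with its 95% interval from limma; filled points have an adjusted p under 0.05 over all genes. The intervals narrow at 48 h, where the 5 called genes lie between 0.33 and 0.69, and no point is filled at 12 h or 24 h.

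Whether the difference between Dox+ and Dox− itself changed with time was tested as an interaction over all 14 arrays. It was called for 0 of 9 members, both at 48 h compared with 12 h, where 1.05% of all genes passed, and at 48 h compared with 24 h, where 0.657% passed. A gene counted only if it passed both with equal array weights and with weights for each time, and 0 passed either. The lowest adjusted p-values were those of RELB and NFKBIA from 12 h and of ICAM1 and NFKBIE from 24 h. From 12 h the difference changed by 0.64 for RELB (SE 0.19, adjusted p = 0.0816 and 0.168 with weights) and by 0.52 for NFKBIA (SE 0.16, adjusted p = 0.098 and 0.168 with weights). From 24 h it changed by 0.62 for ICAM1 (SE 0.18, adjusted p = 0.154 and 0.0982 with weights) and by 0.56 for NFKBIE (SE 0.16, adjusted p = 0.148 and 0.0777 with weights). NFKB2 had the largest estimate, 0.87 from 12 h, with an SE of 0.48 (adjusted p = 0.329). A rise called at 48 h and not at 12 h or 24 h is therefore not shown to differ between the times.

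The course within each group was read beside the 48 h differences. In order of time, RELB averaged 7.20, 7.66 and 7.57 on the Dox+ arrays, against 7.34, 7.57 and 7.08 on the Dox− arrays. ICAM1 averaged 8.36, 8.37 and 8.55 on the Dox+ arrays, against 8.03, 8.30 and 7.86 on the Dox− arrays. In both genes the Dox− level was lower at 48 h than at 24 h, by 0.49 for RELB and 0.44 for ICAM1, while the Dox+ arrays of the 2 times overlapped. TNFAIP3 was lower at 48 h than at 24 h in both groups, by 0.11 in Dox+ and 0.23 in Dox−. In NFKBIE every 48 h array lay above every 24 h array in Dox+ (mean change 0.40; 22.8% of all genes) and below it in Dox− (mean change -0.17). NFKBIA changed by -0.02 in Dox+ and -0.05 in Dox−. Over the members, the 48 h arrays lay wholly below the 24 h arrays in 4 of 9 genes in Dox+ (30.1% of all genes) and in 6 of 9 in Dox− (18.8% of all genes), 4 of these 6 being genes called at 48 h. They lay wholly above in 2 members in Dox+ and in none in Dox− (17.7% of all genes). These courses are descriptions, since times were not tested within a group. The calls at 48 h used the same Dox− arrays, so a low Dox− level at 48 h favours both a call as higher and a position below 24 h.

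Over the 14 arrays the members did not move as a block. TNFAIP3 and ICAM1 had the highest correlation (r = 0.80), with RELB and NFKBIA next (r = 0.80) and RELB and TNFAIP3 at 0.70. RELA varied in its correlation with the genes that rose at 48 h. It stood at 0.66 with RELB, 0.44 with NFKBIA, 0.17 with TNFAIP3, -0.04 with ICAM1 and -0.29 with NFKBIE. The genes whose arrays followed ICAM1 most closely among all genes were EPHA2 (r = 0.94), SPATS2L (0.94), PPP1R18 (0.93), CPNE2 (0.93) and PHYHIPL (0.93), with 48 h differences of 1.21, 0.40, 0.74, 0.60 and 1.81. These coefficients share the 6 groups of arrays, so that any genes that differ between Dox+ and Dox− at 48 h correlate in part through that difference.

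The rest of the pathway was read from 5 lists of textbook members, each set beside the 11.3% of genes called higher and 12.9% called lower at 48 h. Of 10 IκB kinases and close relatives, all measured, 2 rose and none fell at 48 h, with a list median of 0.03. TAB3, an adaptor of the kinase that activates the IκB kinases, rose by 0.60 (11.29 ± 0.02 in Dox+ and 10.68 ± 0.01 in Dox−, SD, n = 3 each, adjusted p = 6.21e-05), and all 3 of its other probe sets rose by 0.40 to 0.68. IKBKE, a kinase related to the IκB kinases and active in interferon induction, rose by 0.46 (adjusted p = 0.0031), as did its other probe set by 0.28 (adjusted p = 0.0129). The core kinase genes CHUK, IKBKB and IKBKG were not called.

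Of 20 ligands and receptors, all measured, 3 rose and 5 fell, with a median of 0.01. TLR3, the receptor for double-stranded RNA, had the largest difference among the 5 pathway lists, 1.54 (5.93 ± 0.12 in Dox+ and 4.39 ± 0.15 in Dox−, SD, n = 3 each, adjusted p = 4.72e-06). Its probe set was dim, with a mean under that of the median gene, so it was not tested with dim genes left out. Another TLR3 probe set rose by the same 1.54, and the third, near the bottom of the scale, differed by 0.17 (adjusted p = 0.253). TNFRSF12A, the receptor for the cytokine TWEAK, rose by 0.37 (adjusted p = 0.0029), and TLR1 by 0.37 (adjusted p = 0.00862), neither of which passed when all 14 arrays shared 1 fit (adjusted p = 0.279 for TNFRSF12A and 0.0744 for TLR1). The TLR1 call was lost under 2 of 14 alternatives, that fit included. LTB, the ligand that drives the alternative pathway, fell by 0.52 at 48 h (adjusted p = 0.000381) and by 1.33 at 24 h (6.51 ± 0.08 in Dox+ and 7.84 ± 0.13 in Dox−, SD, n = 2 each, adjusted p = 0.00101), and its dim probe set differed by -0.06 at 48 h (adjusted p = 0.621). The other falls, named after their values were seen, were those of TNFSF13B (-0.32), IL1RAP (-0.30), TNFRSF11A (-0.28) and IL1R1 (-0.23), the ligand BAFF and receptor genes for interleukin-1 and RANKL. At 24 h TLR3 rose by 0.63 (adjusted p = 0.0232), so 1 gene of the list of 20 was higher and 1 lower at that time. Of all genes 3.01% were called higher and 2.81% lower at 24 h.

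Of 20 adaptors and ubiquitin enzymes 17 were measured, 1 rose and 1 fell at 48 h, with a median of 0.06. TRAF3, which holds the alternative pathway in check, rose by 0.52 (9.18 ± 0.10 in Dox+ and 8.67 ± 0.10 in Dox−, SD, n = 3 each, adjusted p = 0.0011), and its other probe set by 0.39 (adjusted p = 0.0042). RIPK2, the kinase downstream of NOD receptors, fell by 0.22 at 48 h (adjusted p = 0.0217) and by 0.54 at 24 h (adjusted p = 0.0429). Its 48 h call was lost without any 1 of 4 arrays, replicates 1 and 3 of Dox+ and of Dox− (adjusted p 0.0511 to 0.0767), and with all 14 arrays in 1 fit (adjusted p = 0.213), and its other probe set differed by -0.10 (adjusted p = 0.459). Of 8 other IκB family and nuclear regulators 7 were measured, 1 rose and 2 fell at 48 h, with a median of -0.02. NFKBIZ, an inducible nuclear IκB protein, fell by 0.68 (8.96 ± 0.02 in Dox+ and 9.64 ± 0.11 in Dox−, SD, n = 3 each, adjusted p = 0.000144), and its other probe set by 0.64 (adjusted p = 0.00636), opposite in direction to NFKBIA and NFKBIE, and the IκB genes NFKBIB and NFKBID were not called. NKRF, a repressor at κB sites, fell by 0.22 (adjusted p = 0.0279), a call lost under 7 of 15 alternatives. Among these were the fits without each of 5 of the 6 arrays (all but Dox− replicate 2, adjusted p 0.0517 to 0.103) and the fit of all 14 arrays together (adjusted p = 0.166). NLRC5, named after its values were seen, rose by 0.48 (adjusted p = 0.0489) with overlapping arrays.

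Of 22 other target genes 21 were measured, and 7 rose and none fell at 48 h, with a median of 0.13. The chemokine genes CCL20 and CXCL1 led them. CCL20 rose by 1.02 (12.52 ± 0.18 in Dox+ and 11.50 ± 0.05 in Dox−, SD, n = 3 each, adjusted p = 5.18e-05) and CXCL1 by 0.97 (9.82 ± 0.03 in Dox+ and 8.86 ± 0.09 in Dox−, adjusted p = 9.60e-06). TNFAIP8, a regulator of cell death, rose by 0.57 (adjusted p = 0.000749), with 1 other probe set that also rose by 0.57 and the third, a dim one, at 0.12 (adjusted p = 0.472). IRF1, a transcription factor of the interferon response, rose by 0.39 (adjusted p = 0.00342), while its other probe set differed by 0.14 (adjusted p = 0.246) and the call was lost with all 14 arrays in 1 fit (adjusted p = 0.0687). The further rises, named after their values were seen, were those of TNFAIP2 (0.36), BCL2L1 (0.35) and LCN2 (0.32). At 24 h the list was split, with SOD2 higher by 1.00 (adjusted p = 0.0345) and CXCL8 lower by 0.94 (adjusted p = 0.00896) and IER3 lower by 0.82 (adjusted p = 0.0108), 3 genes also named after their values were seen. Of all genes 3.01% were called higher and 2.81% lower at that time. None of the 3 was called at 48 h. SOD2 read 6.49 and 7.25 in Dox+ and 5.85 and 5.89 in Dox− at 24 h, and its Dox− arrays at 12 h read from 5.00 to 6.86. At 12 h no gene of the 5 lists was called (limma; 2 kinases, 2 ligands or receptors, 2 adaptors, none of the nuclear regulators and 5 target genes had an unadjusted p under 0.05), where 0.668% of all genes were called and 13.7% had an unadjusted p under 0.05.

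**Figure D4:**
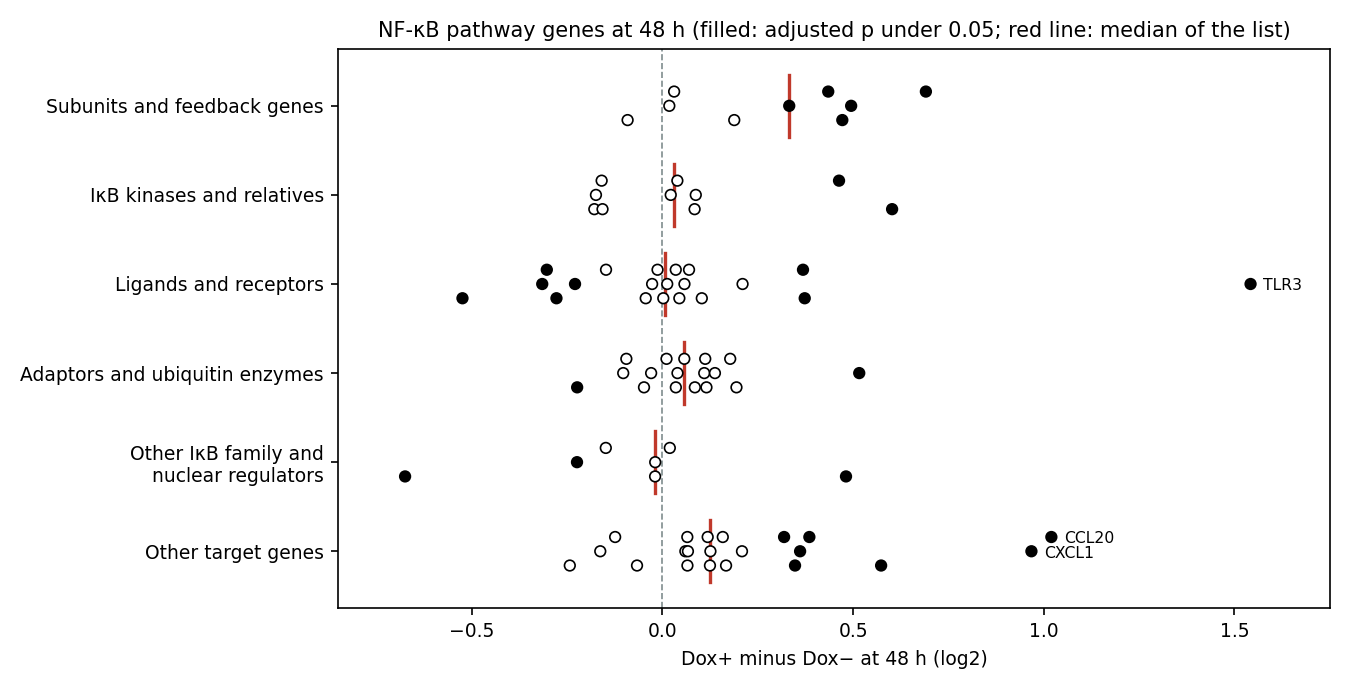
Difference at 48 h (Dox+ minus Dox−, log2) of each measured gene of the 9 NF-κB subunit and feedback genes and of the 5 pathway lists; a point is a gene, filled where the adjusted p is under 0.05, and the red line is the median of the list. Medians are 0.33 for the subunit and feedback genes and -0.02 to 0.13 for the other lists, and TLR3, CCL20 and CXCL1 have the largest differences.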

How the data were processed

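RNA of 14 cultures was hybridised to Affymetrix U133 Plus 2.0 chips for human transcripts, whose probe sets are read at the 3′ end of transcripts. The authors checked array quality, left out outlying arrays, and normalized by RMA in BRB-ArrayTools V4.5.0, and per the labels' processing notes R 3.5.1 was used. The deposited values are log2 RMA levels, and background correction could not be varied from them. The number of arrays limits the precision.

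Probe sets naming 1 gene (41091 probe sets, 41037 of them matched to current symbols by Entrez identifier) were kept. Those naming several genes (1801) or none (11721) and 62 control probe sets were left out. The brightest probe set stood for each of 19775 genes. The test of Dox+ against Dox− was run for each time in limma 3.58.1 in R 4.3.3 (lmFit, eBayes, two-sided), with Benjamini-Hochberg adjustment over all genes and a threshold of 0.05. The change of the difference with time was tested as an interaction over all arrays together, and called only if it also passed with array weights for each time. The code was tested on simulated data. Files were read with pandas 2.3.3 in Python 3.11.15.

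The members and the lists were chosen with earlier results of these data known. Named pathway genes were the called genes of a list at 48 h without overlap of arrays, at most the 4 of greatest size, and the 5 genes most correlated with the member of largest difference. The labels call the replicates biological, with no word on whether cultures were started apart, so p-values measure the spread between these samples. The alternatives were all arrays in 1 fit, a replicate block, quantile normalization, eBayes with trend and robust options, all probe sets kept as separate rows, genes represented by the probe set of largest interquartile range, dim genes left out, _x_at probe sets left out, an unmoderated Student test, each array left out, and, added after the data were seen, a crossed block at 24 h.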

Additional observations from a re-analysis of the deposited data

How the results depend on the processing

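The rises of RELB, NFKBIA, NFKBIE, TNFAIP3 and ICAM1 at 48 h passed under each of 15 alternatives, with the highest adjusted p at 0.0246, 0.0452, 0.00798, 0.0113 and 0.0101 in that order, and no member was called lower at 48 h under any of them. No interaction was called for a member under the alternatives run for it. Counts over all genes depended on the setting. At 12 h, 132 genes became 1683 with all 14 arrays in 1 fit, 87 with the probe set of largest interquartile range, 71 with every probe set on its own and 0 with the Student test, and 4 (without Dox− replicate 1) to 227 (without Dox+ replicate 1) with an array left out, 20 without Dox− replicate 2. At 24 h, 1152 became 2308 with all arrays in 1 fit, 2220 with trend and robust options, 2143 with every probe set on its own and 0 with the Student test, and with an array left out to 647 (Dox− replicate 1), 682 (Dox+ replicate 1) and 723 (Dox− replicate 2), over a range of 647 to 863. At 48 h, 4778 became 2798 with all arrays in 1 fit.

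Among the members 1 was called higher at 24 h with all arrays in 1 fit (TNFAIP3) and 1 with trend and robust options (NFKBIA). With an array left out, members called ranged from 0 to 1 lower at 12 h, 0 to 1 higher at 24 h and 0 to 1 lower at 24 h, each of them NFKB2.

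Differences of uncalled genes changed sign as follows. Quantile normalization gave 0.014 for REL and 0.0792 for RELA at 24 h. The probe set of largest interquartile range gave REL -0.64 at 12 h and 0.49 at 24 h. With an array left out the 12 h differences ranged from -0.26 to 0.17 for NFKB1, from -0.0426 to 0.89 for REL, from -0.38 to 0.0878 for RELB, from -0.38 to 0.0122 for NFKBIA and from -0.0559 to 0.40 for NFKBIE, the 24 h differences from -0.88 to 0.76 for NFKB2, from -0.32 to 0.21 for REL, from -0.18 to 0.15 for RELA, from -0.0402 to 0.24 for RELB and from -0.0499 to 0.19 for ICAM1, and that of RELA at 48 h from -0.0215 to 0.0403.

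Same-numbered Dox+ and Dox− arrays deviated together with r = 0.26 at 12 h, -0.11 at 24 h and 0.11, 0.09 and 0.10 at 48 h. The sign was not the same at each time, so these values do not settle whether the numbers are pairs. The main fits did not take them as pairs. At 48 h each array correlated best with its own number. The replicate block gave 469 genes at 12 h and changed no member's call at any of the 3 times. A crossed block at 24 h, chosen after seeing the data, called 1593 genes and 0 members. Standard errors of the members' differences were 0.13 to 0.41 with 2 arrays a group, at 12 h and 24 h, and 0.05 to 0.09 with 3, at 48 h.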
